A study of Rattus norvegicus with 2 samples.

Results

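Expression of 10 genes of the Notch pathway was examined among the 32662 genes of a rat retina RNA-seq data set. The genes were chosen by symbol and comprise 3 receptors (*Notch1*, *Notch2*, *Notch3*), 4 ligands (*Dll1*, *Dll4*, *Jag1*, *Jag2*) and 3 target genes (*Hes1*, *Hes5*, *Hey1*). The data hold 1 library from a sham-operated retina (CTRL) and 1 library from a retina collected 12 hours after reperfusion that followed ischemia (IR12). Both come from female Long-Evans rats aged 2 months with no genetic change named. With 1 library per condition there is no replicate error, and each difference given is one between these libraries only. The comparison asks how the Notch genes stood in the injured retina relative to the sham-operated one.

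Notch receptors are membrane proteins that are cut when a Delta or Jagged ligand on a neighbouring cell binds them, and the freed intracellular domain joins the DNA-binding protein RBPJ to switch on *Hes* and *Hey* genes. These targets encode repressors of the basic helix-loop-helix class, which hold back neuronal genes. In the retina the pathway is known for keeping progenitors undifferentiated and for the formation of Müller glia, and in vessels for the choice between tip and stalk cells and for mural cell coverage.

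Levels are FPKM, which scale reads to gene length and to the size of the library, so that they can be set beside each other across genes. A log2 ratio is IR12 over CTRL after 1 was added to each FPKM, and it understates the change of genes with low values. A gene was counted as changed when it passed a 2-fold limit, and only genes with an FPKM of at least 1 in either library entered the counts. This filter kept 13599 genes, including 7 of the 10 Notch genes. *Notch3*, *Dll4* and *Hes5* stayed under an FPKM of 1 in both libraries. Among the 7 genes, 0 were higher and 1, *Hes1*, was lower, while 6.56% of all tested genes were higher and 6.12% lower. The median log2 ratio was -0.03 for the 7 genes and 0.02 for all tested genes. When both libraries were scaled to the same FPKM sum (TPM scale), the median of genes expressed in both moved to 0.60, that of the 7 Notch genes to 0.46, and 2817 genes (20.7%) were higher against 436 (3.21%) lower, in place of 892 and 832. Of the 7 Notch genes, 0 were higher and 1 was lower on that scale too.

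**Figure D1:**
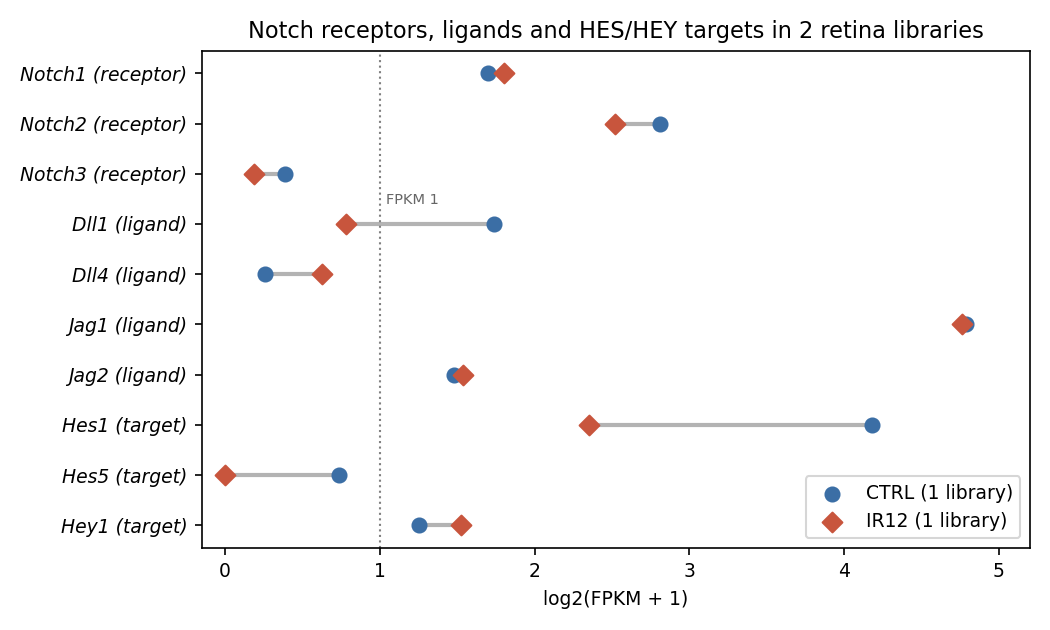
FPKM of the 10 Notch genes on a log2(FPKM + 1) axis, with a circle for the CTRL library, a diamond for the IR12 library and a grey line between them. *Hes1* (17.1 and 4.10) and *Dll1* (2.33 and 0.722) have the longest lines toward lower values in IR12. *Jag1* (26.6 and 26.1) has the shortest, although it lies higher in IR12 on the TPM scale. On that scale *Dll1* and *Hes5* have about the same log2 ratio (-0.56). With a pseudocount of 0.1, *Hes5*, listed at 0 in IR12, has the lowest (-2.94).

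Among the receptors, *Notch2* was the most abundant, with FPKM values of 6.005 (CTRL) and 4.72 (IR12). Its locus lies at chr2:200187184-200317621 on the rn6 genome build. It made up 70.2% of the summed receptor FPKM in CTRL and 64.2% in IR12. The log2 ratio of *Notch2* was -0.29, inside the limit, and it turned positive (0.25) on the TPM scale. *Notch1* (chr3:3905453-3951025), the receptor most studied in retinal progenitors, had FPKM values of 2.24 (CTRL) and 2.49 (IR12). *Notch3* (chr7:14138495-14189688), which is known from vascular mural cells, was low in both libraries, with FPKM values of 0.310 (CTRL) and 0.139 (IR12). The table places 2 further genes in the *Notch3* locus, *Gm9978* and *AABR07055864.1*, and both are listed at 0. The summed FPKM of the 3 receptors was 8.56 in CTRL and 7.36 in IR12, and neither tested receptor, *Notch1* or *Notch2*, passed the limit on any scaling tried.

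The ligands differed more from each other than the receptors did. *Jag1* (ENSRNOG00000007443, chr3:130079361-130114770) had the highest FPKM of all 10 genes in both libraries, with 26.6 in CTRL and 26.1 in IR12, and its log2 ratio of -0.03 became 0.59 on the TPM scale. It supplied 86.1% of the summed FPKM of these 4 ligands in CTRL and 89.2% in IR12. That sum leaves out the atypical ligand *Dner*, with FPKM values of 20.9 (CTRL) and 10.6 (IR12). *Jag2* (chr6:137711155-137733026), the other Jagged ligand, had FPKM values of 1.78 (CTRL) and 1.90 (IR12). The gene *AABR07065617.1*, which shares the *Jag2* locus, is listed at 0.

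*Dll1* (ENSRNOG00000059984, chr1:57318708-57327379), a Delta ligand of neural progenitors, had FPKM values of 2.33 (CTRL) and 0.722 (IR12). Its log2 ratio of -0.95 lay just inside the limit, and 6.61% of tested genes had a ratio at or below it. On FPKM without a pseudocount, *Dll1* was 3.23-fold lower in IR12 and past the limit, under an alternative added once the data were known. Under that rule 7.85% of 13265 genes were higher and 8.12% lower, and 2 Notch genes, *Dll1* and *Hes1*, were lower. On the TPM scale with the pseudocount, *Dll1* had a log2 ratio of -0.56. *Dll4* (chr3:111135021-111145986), a ligand of endothelial tip cells, was among the lowest of the 10 genes, with FPKM values of 0.194 (CTRL) and 0.541 (IR12). *Jag1* exceeded *Dll1* 11.4-fold in CTRL and 36.2-fold in IR12, and these ratios within a library do not depend on how the libraries are scaled.

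The 3 targets encode the HES1, HES5 and HEY1 repressors. *Hes1* (ENSRNOG00000001720, chr11:74312806-74315248) had FPKM values of 17.1 (CTRL) and 4.10 (IR12). It was the one Notch gene past the limit, with a log2 ratio of -1.83, and 312 of the tested genes (2.29%) had a ratio at or below that value. On FPKM without a pseudocount, *Hes1* was 4.17-fold lower in IR12. Its log2 ratio stayed between -2.06 and -1.24 over the 6 other scalings and pseudocounts. *Hes1* was the second most abundant of the 10 genes in CTRL and came after *Jag1* and *Notch2* in IR12. In bulk tissue, fewer cells that express *Hes1* and less *Hes1* RNA per cell cannot be told apart.

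**Figure D2:**
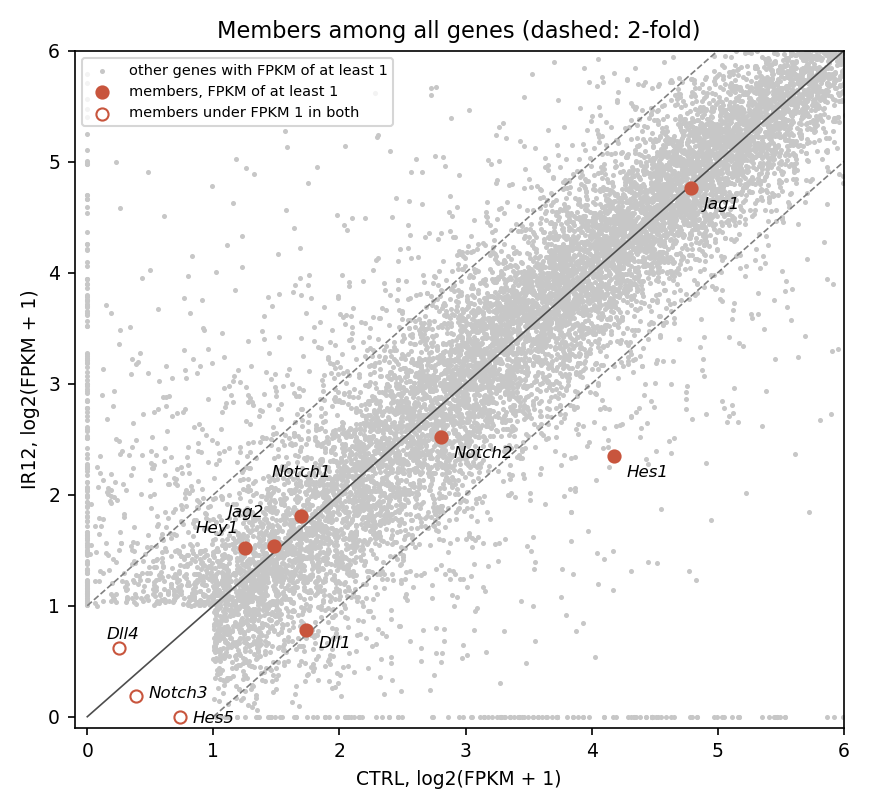
Log2(FPKM + 1) in IR12 against CTRL, with grey points for other genes with an FPKM of at least 1 in either library and orange points for the Notch genes (open where under 1 in both). Axes end at 6. The solid line marks equal values and the dashed lines the 2-fold limit. *Hes1* lies past the lower dashed line (log2 ratio -1.83) and *Dll1* just inside it (-0.95).

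Ratios within each library carry no scaling between libraries, and they placed *Hes1* lower in IR12 relative to *Jag1*, *Notch1*, *Notch2*, *Hey1*, *Hey2*, *Hes6* and *Nrarp*, the pathway genes it was set against. Each of these genes lay inside the limit, so their ratios mostly repeat the lower *Hes1* value. *Hes1* was not set against *Dll1* or the atypical ligand *Dner*. Without a pseudocount these were 3.23-fold and 1.97-fold lower in IR12, beside 4.17-fold for *Hes1*. The ratio of *Hes1* to *Jag1*, the most abundant Notch ligand here, was 0.642 in CTRL and 0.157 in IR12. Relative to *Notch2*, *Hes1* stood at 2.85 in CTRL and 0.868 in IR12. Relative to *Hey1*, it stood at 12.3 in CTRL and 2.19 in IR12. *Hes1* thus exceeded *Notch2* in the CTRL library and not in the IR12 library, while it exceeded *Hey1* in both.

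*Hey1* (chr2:95320283-95322696), a target known from vessels, had FPKM values of 1.39 (CTRL) and 1.88 (IR12). Its log2 ratio of 0.27 was the highest of the 7 tested Notch genes as deposited and lay inside the limit on each scaling tried. *Hes5* (chr5:172364421-172365188), a target in neural progenitors, had an FPKM of 0.666 in CTRL and is listed at 0 in IR12. The summed FPKM of these 3 targets was 19.1 in CTRL and 5.98 in IR12, and *Hes1* made up 89.3% of it in CTRL and 68.6% in IR12. The sum thus mostly repeats the *Hes1* values. Over all 10 HES and HEY genes, the sum was 37.3 in CTRL and 22.8 in IR12.

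The reads behind these values can be bounded from the steps between the lowest FPKM of single-exon olfactory receptor genes. An FPKM of 1 stood for about 15.4 reads per kb of effective length in CTRL and 26.3 in IR12. *Hes1* had about 263 reads per kb in CTRL and 108 in IR12, and from the length of its locus at most 590 and 241 reads. *Hey1* had at most 47 reads in CTRL and 109 in IR12. *Hes5* had at most 5 reads in CTRL, and its 0 in IR12 may be a failed estimate, so no change was read from it. *Dll1* had about 36 reads per kb in CTRL and 19 in IR12, and *Dll4* 2.98 and 14.2. These figures cover counting only, and the difference in *Hes1* rests on far more reads than those in *Dll4* or *Hes5*.

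**Figure D3:**
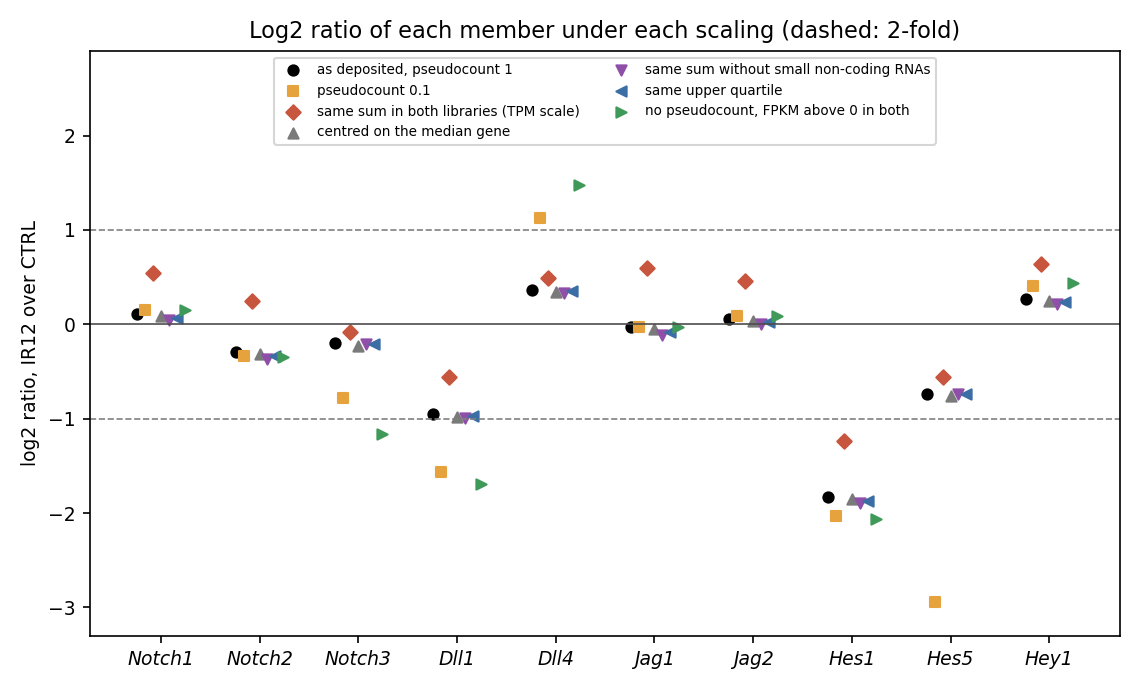
Log2 ratio of each Notch gene under the deposited scale and each other scaling or pseudocount, 1 symbol per setting, with dashed lines at 2-fold. *Hes1* lies below the lower line in every setting (-2.06 to -1.24). *Dll1* crosses it with a pseudocount of 0.1 or none, *Notch3* with none, and *Hes5*, listed at 0 in IR12, with 0.1. *Dll4* crosses the upper line with 0.1 or none, and *Notch2* and *Jag1* move above 0 on the TPM scale (0.25 and 0.59).

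RBPJ binds DNA at a core of TGGGAA, often preceded by a G, and *Hes1* and *Hes5* are its textbook targets. The RefSeq promoter table (GRCr8 build) matched 8 of the 10 genes, with 2 start sites for *Jag2* and none for *Dll4* and *Hey1*. In the 250 bases upstream of each start, both strands were searched for TGGGAA and for GTGGGAA, which contains it. TGGGAA was found at 3 genes, *Hes1*, *Hes5* and *Dll1*, each with 2 matches, and each of these also held GTGGGAA. Of 33469 rat promoter windows of this length, 22.1% held TGGGAA at least once and 2.71% at least 2 times, and 5.27% held GTGGGAA. The *Hes1* window lies at chr11:84213046-84213295 on the minus strand, that of *Hes5* at chr5:170804327-170804576 on the plus strand and that of *Dll1* at chr1:64993275-64993524 on the minus strand, all on GRCr8. They are shown because they hold matches, which are in capitals, with TTCCCA and TTCCCAC marking those on the opposite strand.
Hes1: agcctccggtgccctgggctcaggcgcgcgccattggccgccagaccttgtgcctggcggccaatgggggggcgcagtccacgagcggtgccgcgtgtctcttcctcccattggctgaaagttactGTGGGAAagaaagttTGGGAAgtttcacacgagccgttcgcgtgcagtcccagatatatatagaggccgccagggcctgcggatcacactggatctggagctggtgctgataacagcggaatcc
Hes5: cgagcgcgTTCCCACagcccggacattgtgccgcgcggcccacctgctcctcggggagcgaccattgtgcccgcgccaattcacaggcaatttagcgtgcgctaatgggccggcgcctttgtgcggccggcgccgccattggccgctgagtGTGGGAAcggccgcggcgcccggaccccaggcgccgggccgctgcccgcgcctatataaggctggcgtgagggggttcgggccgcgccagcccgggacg
Dll1: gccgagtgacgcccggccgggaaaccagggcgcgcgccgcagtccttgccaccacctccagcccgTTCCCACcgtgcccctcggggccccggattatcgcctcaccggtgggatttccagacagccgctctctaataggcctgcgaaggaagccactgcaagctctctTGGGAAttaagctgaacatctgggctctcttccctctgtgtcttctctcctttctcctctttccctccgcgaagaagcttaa
In *Hes1* the GTGGGAA match starts at position -124 and the other TGGGAA at -109, counted from the start site. In *Hes5* the GTGGGAA matches start at -242 (opposite strand) and -99. 2 matches of GTGGGAA were held by 0.185% of all windows. In *Dll1* the GTGGGAA match starts at -185 (opposite strand) and the other TGGGAA at -82. The matches describe letters in these windows only, and binding of RBPJ was not measured. The 3 genes with a match had deposited log2 ratios of -1.83 (*Hes1*), -0.95 (*Dll1*, inside the limit) and -0.74 (*Hes5*, listed at 0 in IR12). Those without a match had -0.29 (*Notch2*), -0.20 (*Notch3*), -0.03 (*Jag1*), 0.06 (*Jag2*) and 0.11 (*Notch1*). *Hes5* and *Notch3* were under an FPKM of 1 in both libraries, and *Notch2* and *Jag1* were higher in IR12 on the TPM scale. A link between the matches and these ratios was not tested.

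**Figure D4:**
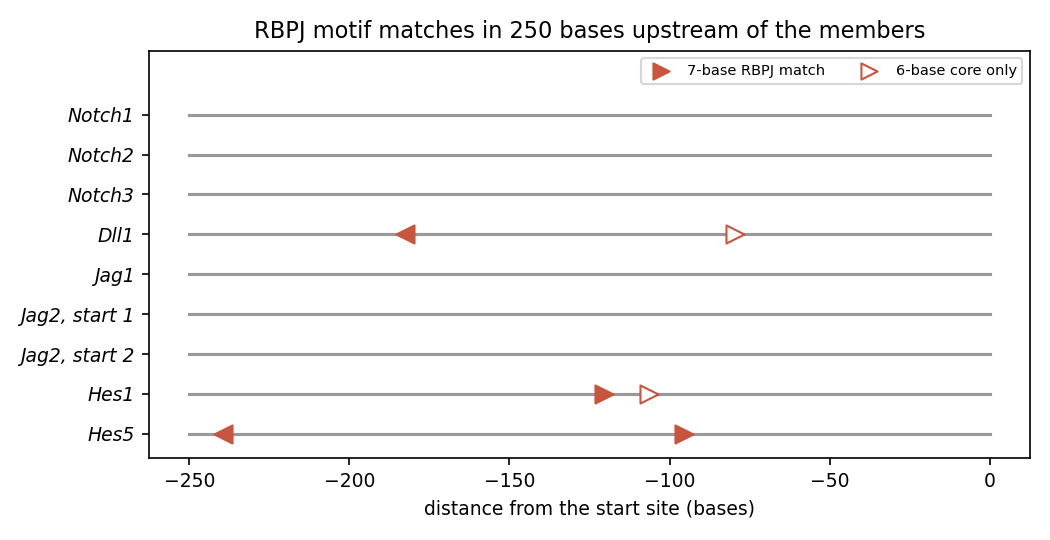
Matches to the RBPJ motif in the 250 bases upstream of 8 Notch genes, by distance from the start site. Filled triangles mark the 7-base motif and open triangles the 6-base core alone, pointing right on the gene's strand and left on the opposite one. *Hes1*, *Hes5* and *Dll1* hold 2 matches each.

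The wider pathway was described with 8 lists that hold 65 other Notch genes. Of these, 62 symbols were found and 47 were tested. As deposited, 0 were higher and 0 were lower past the limit, beside 6.56% and 6.12% of all tested genes. The median log2 ratio of the 47 was -0.05. On the TPM scale, 7 of the 47 were higher and 0 were lower, beside 20.7% and 3.21% of all tested genes. *Hes1* was lower past the limit on both scales. Beside a share of 3.21% among all tested genes, nothing is read from 0 lower among the 47. *Rbpj*, which encodes the DNA-binding partner of Notch, had FPKM values of 21.7 (CTRL) and 27.3 (IR12) at its chromosome 14 locus. A separate row named *Rbpj* on chromosome 5 stood at 0.0511 and 0.0598. The co-activators *Ep300* (53.5 and 43.3) and *Snw1* (45.4 and 40.7) lay inside the limit.

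Genes that process ligands and receptors also lay inside the limit as deposited. *Mib1*, the ubiquitin ligase that lets Delta and Jagged ligands be internalised, had FPKM values of 107 (CTRL) and 88.7 (IR12). *Itch*, a ubiquitin ligase that acts on Notch, had 58.2 in CTRL and 105 in IR12. *Fbxw7*, which targets the Notch intracellular domain for degradation, had 62.4 in CTRL and 87.5 in IR12. Of the subunits of γ-secretase, which makes the final cut in Notch, *Psenen* had 99.9 and 94.1 and *Ncstn* 36.9 and 38.0. The sugar-transferring enzymes *Poglut1* (18.1 and 24.99), *Pofut1* (12.0 and 15.2) and *Rfng* (6.09 and 7.19) and the co-repressors *Ncor1* (73.9 and 105), *Ctbp2* (85.3 and 78.7) and *Hdac2* (71.1 and 80.9) showed no change past the limit as deposited. *Dner*, an atypical Notch ligand of neurons, was the only gene of its list with an FPKM of at least 1, and its 20.9 in CTRL and 10.6 in IR12 gave a log2 ratio of -0.92, or -0.31 on the TPM scale. *Dlk2* (0.576 and 0.460) and *Notch4* (0.446 and 0.431) were low.

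The other tested genes of the HES and HEY family lay inside the limit. *Hes6* had FPKM values of 10.9 (CTRL) and 9.58 (IR12), *Hey2* had 6.57 and 6.98, and *Nrarp*, a Notch target that restrains the pathway, had 3.54 and 3.87. *Heyl* was low (0.641 and 0.222), and *Hes2*, *Hes3*, *Hes7* and *Helt* are listed at 0 in both libraries. *Hes1* was therefore the most abundant HES or HEY gene in CTRL, and *Hey2* and *Hes6* exceeded it in IR12. The proneural factors that HES proteins repress in development included 2 tested genes, *Neurod4* (195.3 and 163) and *Neurod1* (96.4 and 137), and neither passed the limit as deposited. *Neurod1* was higher past it on the TPM scale (log2 ratio of 1.15).

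*Hes1* is expressed by Müller glia, the main glial cell of the retina, and markers of these cells differed between the same libraries. Of 14 Müller glia markers, all tested, 9 were lower and 2 were higher as deposited, and 6 were lower and 4 higher on the TPM scale. Over all tested genes, 6.12% were lower and 6.56% higher as deposited, and 3.21% and 20.7% on the TPM scale. The median of their deposited log2 ratios was -1.28. Their summed FPKM was 2387 in CTRL and 1460 in IR12, and none was listed at 0. The most abundant over both libraries was *Clu*, with 223 in CTRL and 673 in IR12, and *Gfap*, the intermediate filament of reactive glia, had 2.95 and 21.9. *Glul*, the glutamine synthetase of Müller glia, had 754 and 126, and *Rlbp1*, a retinoid carrier, 126 and 26.8. The ratio of *Hes1* to *Glul* was 0.0227 in CTRL and 0.0326 in IR12, and that to *Rlbp1* 0.136 and 0.153. *Sox2* and *Sox9*, transcription factors of the same cells, gave *Hes1* ratios of 1.36 and 0.553 and of 4.28 and 2.85. For *Slc1a3*, a glutamate transporter of Müller glia, the ratio was 0.158 in CTRL and 0.0926 in IR12. *Hes1* thus stood lower in IR12 relative to *Sox2*, *Sox9* and *Slc1a3* and higher relative to *Glul* and *Rlbp1*. These markers, out of the 14, were named after their values were seen. Without a pseudocount, *Aqp4* (11.5-fold) and *Kcnj10* (15.1-fold) were lower in IR12 by more than *Hes1* (4.17-fold). *Apoe*, *Dkk3* and *Car2* were lower by less than *Hes1*, and *Vim*, *Clu*, *Prdx6* and *Gfap* were higher. The part of Müller glia in the *Hes1* difference was not tested.

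Lens genes differed between the libraries as well. Of 10 lens markers, 9 were lower and 0 higher as deposited, and the median of their log2 ratios was -2.45, beside 6.12% lower and 6.56% higher among all tested genes. Their summed FPKM was 3389 in CTRL and 403 in IR12, the most abundant was *Cryba1* (1614 and 196), and none was listed at 0. Their part in the lower *Hes1* and *Dll1* values was not tested.

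*Notch3*, *Dll4*, *Jag1* and *Hey1* are also known from vessels. Of 9 tested endothelial markers, 1 was higher (*Flt1*, 12.3 and 32.3) and 0 were lower as deposited, and the sum over the 11 found was 140 in CTRL and 123 in IR12. Most of that sum was *Kdr*, the main VEGF receptor, with 108 and 66.8. The median log2 ratio of the tested markers was 0.24, and by any amount 8 of the 11 were higher and 3 lower as deposited. Of 9 tested pericyte and mural markers, 1 was higher (*Des*, 0.296 and 1.81) and 1 was lower (*Rgs5*, the most abundant, 38.6 and 17.6), and the sum over the 11 found was 63.8 in CTRL and 44.0 in IR12. Among all tested genes 6.56% were higher and 6.12% lower, and nothing is read from 1 gene in a list of 9. The part of vascular cells in the values of *Dll4*, *Notch3* and *Hey1* was not tested.

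**Figure D5:**
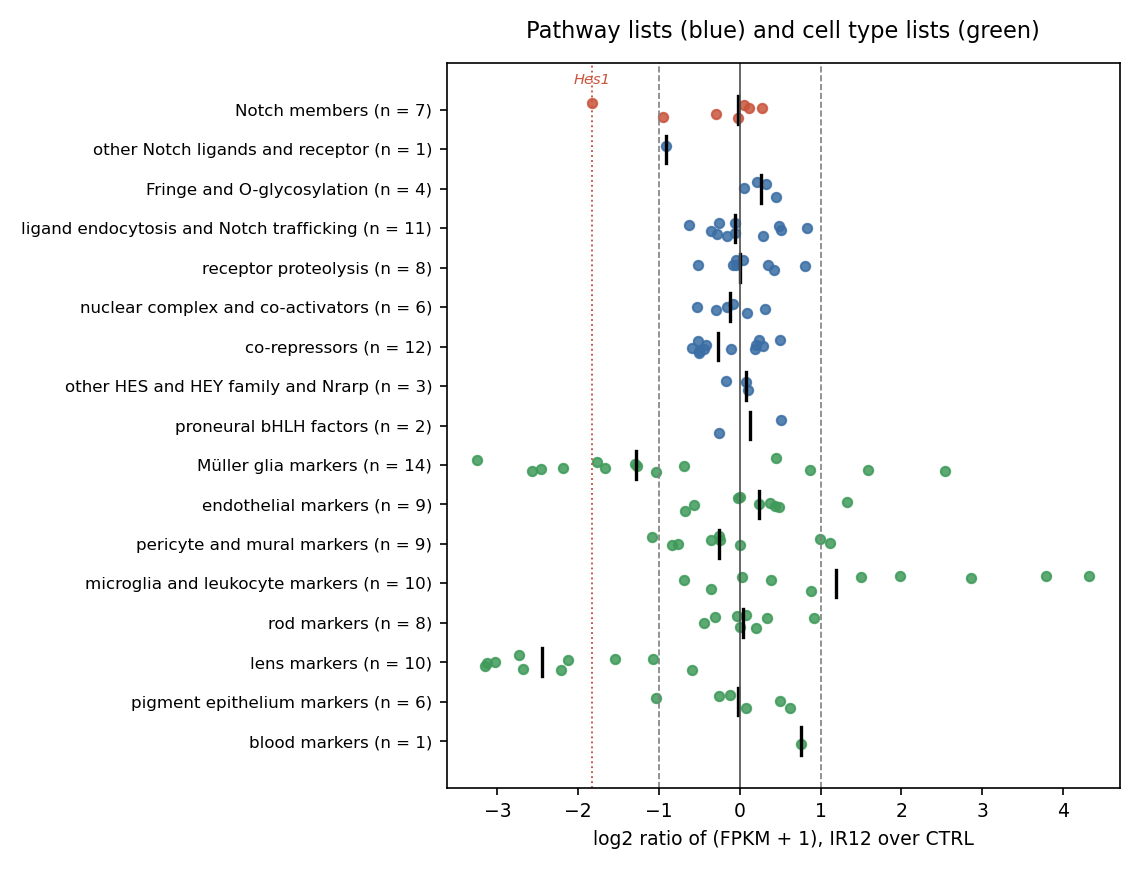
Log2 ratio of (FPKM + 1), IR12 over CTRL as deposited, for each tested gene of the Notch genes (orange), 8 pathway lists (blue) and 8 cell type lists (green). Black bars are medians, dashed lines the 2-fold limit and the dotted line *Hes1*. Pathway genes lie inside the limit (0 of 47 past it, and 7 higher on the TPM scale). Below it lie 9 of 14 Müller glia markers and 9 of 10 lens markers. Of all tested genes, 6.56% were higher and 6.12% lower as deposited.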

How the data were processed

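Total RNA from 1 CTRL and 1 IR12 retina library was depleted of rRNA, made into stranded libraries and sequenced as single-end reads that the authors shortened to 100 bp. The authors deposited 1 table of gene FPKM on rn6, and their processing notes name STAR 2.5.2b and Cuffdiff 2.2.0. FPKM were used as deposited with a pseudocount of 1, a 2-fold limit and a minimum FPKM of 1 in either library. With 1 library per group no test was run. Listed starts were taken as 0-based, and 1 was added. Small RNAs, recognised by symbol, took 67.8% of summed FPKM in CTRL and 46.3% in IR12. Depth was read from olfactory receptor genes with loci of 800 to 1100 bp (this step was added with the values in view). Of values up to 10 reads, 41 of 41 in CTRL and 117 of 120 in IR12 were whole multiples within 0.05. A listed 0 may be a failed estimate.

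The Notch genes and all lists were chosen with earlier results of these data known. Named are the 10 genes, the 3 most abundant of each pathway list, the most abundant marker of each cell type with those at 0 or, where 5 or fewer, past the limit, and the 3 genes nearest to *Hes1* and *Hey1*, except some that are not reported here. *Gfap*, *Glul*, *Rlbp1*, *Sox2*, *Sox9*, *Slc1a3*, *Heyl*, *Hes2*, *Hes3*, *Hes7*, *Helt* and the genes that share a locus with *Notch3* or *Jag2* were named after their values were seen. So were *Aqp4*, *Kcnj10*, *Apoe*, *Dkk3*, *Car2*, *Vim* and *Prdx6*. Promoter searches of receptors and ligands were added to those planned for targets. The alternatives were a pseudocount of 0.1 or none, minimum FPKM of 5 or none, and scaling to the TPM scale, the median gene, the upper quartile or the sum without small RNAs. The fold calls and the depth step were tested on simulated data that held counting error only. Fold calls were simulated for genes with an FPKM of at least 5 in CTRL, and the promoter search was not simulated. Python 3.11.15, numpy 2.4.6, pandas 2.3.3 and matplotlib 3.10.9 were used.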

Additional observations from a re-analysis of the deposited data

How the results depend on the processing

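The alternatives gave 72 values for the median of the Notch genes and for counts past the limit. The counts were those of Notch genes, all genes, other pathway genes and Müller glia markers. Of the 72 values, 8 moved and 64 did not (for counts, by over 1.5 times). A count that stayed at 0 was counted as not moved, as were 6 lower Müller glia markers on the TPM scale beside 9 as deposited. Medians of -0.11 with no minimum FPKM and -0.11 without small RNAs, beside -0.03 as deposited, were counted as not moved. Notch genes at least 2-fold lower became 2 with a pseudocount of 0.1 and 2 with none, where *Dll1* joined *Hes1*. On the TPM scale the Notch genes had a median of 0.46, all genes past the limit were 2817 higher and 436 lower, pathway genes 7 higher, and Müller glia markers 4 higher. That scale raises IR12 values by construction, since their deposited sum was smaller. Small RNAs took 67.8% of the sum in CTRL and 46.3% in IR12. Scaled to the same sum without them, the median of genes expressed in both was -0.05, beside 0.60 on the TPM scale. *Notch2* then had a log2 ratio of -0.37 and *Jag1* of -0.11. With a minimum FPKM of 5 the median of the Notch genes was -0.29, over fewer genes. *Hes1* was past the limit in the same direction under each alternative. *Notch2* and *Jag1* changed direction on the TPM scale, and *Jag2* when small RNAs were left out (-0.0013). *Dll4* and *Notch3*, under an FPKM of 1 in both libraries, passed 2-fold without a pseudocount (log2 ratios of 1.48 and -1.16). With 0.1, *Dll4* (1.13) and *Hes5* (-2.94) also passed it, both under that FPKM. The *Hes5* ratio rests on its listed 0 in IR12, which may be a failed estimate, and no change is read from it. The libraries differed in depth, with 1 read worth 1.71 times as much FPKM in CTRL as in IR12, so low values in CTRL are the less precise.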

Other observations

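The genes nearest to *Hes1* over log2(FPKM + 1) in the 2 libraries were *AABR07053542.2* (FPKM of 16.5 in CTRL and 4.40 in IR12), *Wls* (16.6 and 3.76) and *Mgst1* (16.1 and 4.37), and 6 genes lay within a distance of 0.25. Near *Hey1* lay 203 genes within that distance, the nearest being *Tgfb1i1* (1.36 and 1.83), *Lin9* (1.36 and 1.83) and *Rnf126* (1.38 and 1.82). This likeness rests on 2 libraries.

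As deposited, 6.56% of all tested genes were higher and 6.12% lower in IR12. Of 10 tested microglia and leukocyte markers, 5 were higher and 0 lower as deposited, and the sum over the 11 found was 23.5 in CTRL and 136 in IR12. The most abundant was *Lyz2* (9.73 and 76.9). The neutrophil genes *S100a8* (listed at 0 and 12.8) and *S100a9* (0.199 and 22.996) were higher, as were *Itgam* (0.693 and 5.71) and the pan-leukocyte gene *Ptprc* (0.408 and 2.98). The other genes of the list, named after their values were seen, did not pass the limit with the pseudocount or were not tested. Lower were *P2ry12* (1.67 and 0.650, or 2.56-fold without a pseudocount), *Cx3cr1* (1.16 and 0.676) and *Tmem119* (0.231 and 0.0967). Higher were *Aif1* (5.42 and 7.36), *Csf1r* (3.61 and 3.71) and *Cd68* (0.437 and 1.65, or 3.76-fold without a pseudocount). Of 8 tested rod markers, 0 passed the limit as deposited. Of 6 tested pigment epithelium markers, 1 was lower as deposited (*Rpe65*, 11.1 and 4.88), and *Ttr* was the most abundant (61.8 and 87.4). The 1 tested blood marker, *Hbb*, had 20.4 and 35.1.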
